A study of Mus musculus with 27 samples.

Results

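The Dlx genes are homeobox genes that stand in neighbouring pairs, and their nested activity along the branchial arches is known as the Dlx code. The 10 genes described here were listed by name for their known roles in the arches: Dlx1, Dlx2, Dlx3, Dlx4, Dlx5 and Dlx6, the homeobox genes Barx1 and Gsc, the ligand gene Edn1 and its receptor gene Ednra. They are 10 of 23279 genes in the table, taken by name and not by a threshold on their values. Earlier results of these data were known when they were listed. RNA-seq of 27 mouse libraries in 9 groups was available, and 26 libraries were used, because 1 hindlimb bud library of E10.5 (replicate 2) lists nearly all genes on chromosome 6 at 0, Dlx5 and Dlx6 among them. Every group had n = 3 except the E10.5 hindlimb buds, with n = 2.

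Embryonic groups came from Slc:ICR mice: branchial arch (BA), cardiac tissue (Ca), tail bud (TB), forelimb buds (FLB) and hindlimb buds (HLB) at E10.5, and early FLB and early HLB, which the labels put at E10.0. The study's text puts the early FLB at an earlier stage than the early HLB, so that stage and limb type cannot be told apart between these groups, and the changes to E10.5 span unequal times. Whole amputated tissue of 3 embryos was used with no sorting named, so ectoderm, vessels and blood were present, and the labels do not say which arches were taken. ES-FLB and ES-HLB (together ES-LB) are limb bud organoids grown from 1 mouse ES cell line, EB5 with 1 Hand2::GFP allele, and were sorted for Hand2::GFP on day 9 from 96 aggregates. Both had BMP4 and Matrigel early and the BMP inhibitor LDN193189 and Wnt3 late. ES-FLB had retinoic acid, and ES-HLB an antagonist of retinoic acid. Sorting selects cells in which Hand2 is active, and ES-LB differ from the limb buds in strain, culture and sorting together, which cannot be told apart. Nothing in the labels says that the libraries of a group came from separate litters or cultures, so p-values measure the spread between these libraries only.

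In the first arch of the embryo, endothelin-1 from the surface ectoderm and core acts on the endothelin A receptor of neural crest cells. This signal switches on Dlx5 and Dlx6 in the lower, mandibular part, and Dlx3, Dlx4, Hand2 and Gsc follow, whereas Dlx1 and Dlx2 are active in the upper and the lower part alike. Barx1 marks the mesenchyme of the molar region and of joints to be, and Gsc the mesenchyme around the tympanic ring and lower jaw. In the limb bud, Dlx2, Dlx5 and Dlx6 are genes of the apical ectodermal ridge, Dlx3 is known from surface ectoderm, and Gsc from the proximal and anterior mesenchyme.

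Values are CPM, reads per 1000000 reads on genes, that were scaled between libraries by a trimmed mean of log ratios. Estimated reads per library ran from 5543760 in the E10.5 FLB to 22142509 in the early FLB, and 3 reads were worth 0.135 to 0.541 CPM before scaling. Tissue labels were checked with marker lists. Summed cardiomyocyte markers reached 14079 to 16760 CPM in Ca and at most 23.2 CPM elsewhere, and tail bud markers 253 to 307 CPM in TB and at most 5.51 CPM elsewhere. Of 10 limb mesenchyme markers, only Hoxa10 and Hoxd10 were listed at 0 in all BA libraries and in all Ca libraries. The sum of these 10 was 663 to 746 CPM in BA, 598 to 608 in ES-FLB, 754 to 971 in the early FLB and 1433 to 1503 in E10.5 FLB. The BA libraries differed from each other in neural and ganglion markers, with summed values of 61.4, 8.55 and 29.9 CPM in replicates 1, 2 and 3. In whole tissue, fewer cells of a type and less RNA per cell cannot be told apart.

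In mm10 (GENCODE vM21), Dlx1 lies at chr2:71528113-71533981 on the plus strand and Dlx2 at chr2:71543408-71546754 on the minus strand. Dlx3 (chr11:95120119-95125296, plus) faces Dlx4 (chr11:95140447-95146263, minus), and Dlx6 (chr6:6863334-6868568, plus) faces Dlx5 (chr6:6877805-6882085, minus). Barx1 (chr13:48662998-48666507, plus), Gsc (chr12:104471209-104473330, minus), Edn1 (chr13:42301476-42307990, plus) and Ednra (chr8:77663031-77724464, minus) stand apart.

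Stretches of sequence before the start of 3 of the genes are shown, since these genes include the largest difference of BA (Barx1), a gene of a pair that moved together (Dlx2) and the gene that was high in both BA and the E10.5 limb buds (Gsc). RefSeq (GRCm38.p6) held a promoter for 6 of the 10 genes. The 250 bases before the start are given 5′ to 3′ on the gene's own strand, and capitals mark matches, on either strand, of 4 motifs: TAATTA (the homeodomain core), CATCTG (an E-box, the kind of site that Hand2 binds), GGGCGG (the GC box) and TATAAA (the TATA box). Matches of a motif may overlap.
Dlx2 (chr2:71546755-71547004, minus strand): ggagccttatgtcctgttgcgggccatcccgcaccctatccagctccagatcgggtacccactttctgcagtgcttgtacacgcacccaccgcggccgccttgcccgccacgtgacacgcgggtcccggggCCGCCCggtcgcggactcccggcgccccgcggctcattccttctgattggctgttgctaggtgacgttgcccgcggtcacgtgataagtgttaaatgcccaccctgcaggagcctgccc
Barx1 (chr13:48662786-48663035, plus strand): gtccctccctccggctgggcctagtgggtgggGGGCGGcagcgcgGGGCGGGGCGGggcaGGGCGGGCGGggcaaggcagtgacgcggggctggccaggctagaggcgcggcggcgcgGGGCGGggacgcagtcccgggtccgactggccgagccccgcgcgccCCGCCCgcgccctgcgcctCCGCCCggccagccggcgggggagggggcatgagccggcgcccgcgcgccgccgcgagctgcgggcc
Gsc (chr12:104473237-104473486, minus strand): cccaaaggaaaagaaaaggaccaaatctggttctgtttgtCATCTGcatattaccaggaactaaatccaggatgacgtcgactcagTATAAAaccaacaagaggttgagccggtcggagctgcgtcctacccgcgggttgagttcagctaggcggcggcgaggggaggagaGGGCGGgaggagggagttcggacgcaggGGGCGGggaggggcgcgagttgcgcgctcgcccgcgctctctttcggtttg

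Barx1 had 8 GC box matches in this stretch, Gsc 2 and Dlx2 1, and 32.7% of 32851 promoters of this length held at least 1. The E-box matched in Gsc only among the 6 genes, 210 bases before the start, and in 14.4% of all promoters. The TATA box also matched in Gsc, 164 bases before the start, and in 12.4% of all promoters, while the homeodomain core matched in none of the 6 and in 4.84% of all. Barx1 was rich in G and C, 85.6% of bases, which lies above 99.9% of promoters. The stretches of Dlx1 (68.0%) and Dlx2 (66.4%) lay above 87.8% and 85.2% of promoters, Edn1 (50.4%) and Ednra (54.8%) near the median of 52.4%. The stretches of Dlx1, Barx1, Gsc and Ednra reach into the gene as GENCODE draws it, since the RefSeq start lies further inside, and those of Dlx2 and Edn1 do not. A match of letters is a description and shows no binding.

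Edn1, the ligand gene, was highest in the heart and low in the arch. Scaled CPM of Edn1 were 13.7, 8.25 and 9.28 in Ca, 0.780, 1.04 and 1.88 in BA, and 1.74, 1.85 and 1.71 in TB. All Ca libraries lay above all others, and BA and TB overlapped. Edn1 was lower in BA than in Ca by a log2 fold change of −2.67 ± 0.28 (SE, limma with Benjamini-Hochberg, adjusted p = 2.5e-10). Against E10.5 FLB (0.340, 0.493 and 1.38 CPM) Edn1 of BA gave 0.53 ± 0.28 with adjusted p = 0.19, and 0.87 with adjusted p = 0.026 without replicate 3 of the E10.5 FLB. Against E10.5 HLB (0.549 and 0.886 CPM) it gave 0.47 ± 0.31, and against TB −0.44 ± 0.28, with adjusted p of 0.24 and 0.2. The values in BA correspond to an estimated 7, 9 and 16 reads, so the depth limits these differences.

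Ednra, which encodes the receptor, was present in every library and was not highest in BA. Its levels were 72.5, 71.7 and 74.4 scaled CPM in BA, 60.4, 54.5 and 72.7 in Ca, and 20.8, 22.95 and 26.2 in TB. The E10.5 FLB stood above BA with 120, 110 and 109 CPM, and the E10.5 HLB were near BA with 75.8 and 78.0 CPM. BA was thus lower than E10.5 FLB (log2 fold change −0.63 ± 0.08, adjusted p = 9.3e-08) and higher than TB (1.63 ± 0.08, adjusted p = 6.3e-18). Against E10.5 HLB the difference was −0.077 ± 0.08 with adjusted p = 0.51, and its sign turned with CPM as deposited. Against Ca it was 0.23 ± 0.08 with adjusted p = 0.0077, and without replicate 2 of Ca it was 0.14 with adjusted p = 0.11.

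**Figure D1:**
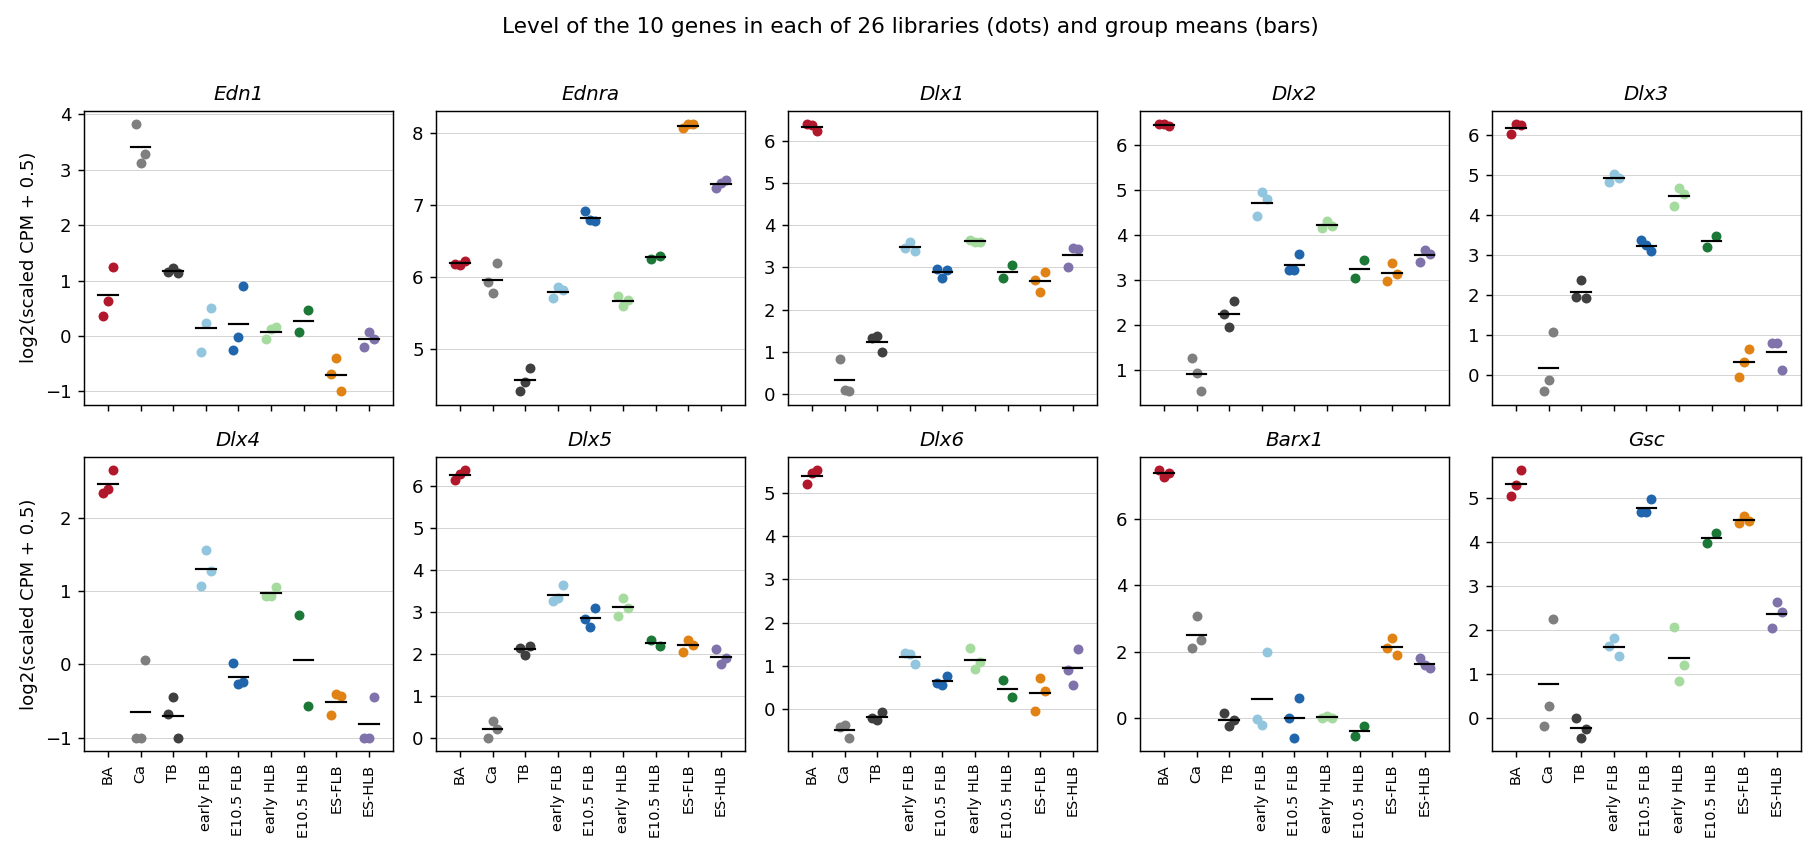
Each panel plots log2(scaled CPM + 0.5) of 1 gene (y axis) in the 9 groups (x axis), where dots are libraries and bars are group means. All 6 Dlx genes, Barx1 and Gsc were highest in BA, Edn1 in Ca and Ednra in ES-FLB, and the Dlx3 levels of both ES-LB groups lie among those of Ca.

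Dlx1 and Dlx2, the pair on chromosome 2 that is active in the upper and the lower arch, were highest in BA. Dlx1 had 84.5, 83.3 and 75.2 scaled CPM in BA, 7.30, 6.25 and 7.23 in E10.5 FLB and 6.23 and 7.80 in E10.5 HLB. In Ca it had 1.28, 0.559 and 0.538 CPM, and in TB 1.98, 2.09 and 1.48 CPM. No library of another group came near BA, and the log2 fold changes of BA were 3.46 ± 0.17 against E10.5 FLB, 3.45 ± 0.19 against E10.5 HLB, 6.02 ± 0.17 against Ca and 5.12 ± 0.17 against TB. The largest adjusted p of these 4 was 1.9e-15. Dlx2 had 87.0, 87.4 and 85.5 CPM in BA, and relative to their mean its libraries were the closest to each other of any Dlx gene in BA. In E10.5 FLB it had 8.83, 8.88 and 11.4 CPM, in E10.5 HLB 7.69 and 10.45, in TB 4.22, 3.36 and 5.24, and in Ca 1.92, 1.40 and 0.941. Differences of Dlx2 between BA and these tissues were 3.11 ± 0.17, 3.20 ± 0.19, 4.21 ± 0.17 and 5.54 ± 0.17 in that order, with adjusted p of at most 7.6e-15.

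The antisense gene Dlx1as, which crosses Dlx1 on the other strand, was high in BA. It had 67.7, 73.4 and 83.3 scaled CPM in BA, at most 1.15 in the embryonic libraries of other groups and 3.87, 3.21 and 2.93 in ES-HLB. Its CPM in BA, not counted per length, were 92.4% of those of Dlx1. In the early FLB it was 9.09% of Dlx1, in the early HLB 8.42%, in ES-FLB 11.7% and in ES-HLB 35.1%, and it was listed at 0 in both E10.5 HLB libraries. Dlx1as and Dlx1 share 335 exon bases, 6.21% of the exons of Dlx1, and the strand setting of the authors' counting is not given in the sources used here. Reads of the shared bases therefore cannot be told apart if strand was ignored.

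Dlx5 and Dlx6, the pair on chromosome 6 that responds to endothelin in the lower arch, were high in BA as well. Dlx5 had 70.9, 78.2 and 82.9 scaled CPM in BA, 6.62, 5.75 and 8.09 in E10.5 FLB, 4.58 and 4.07 in E10.5 HLB, 3.97, 3.48 and 4.10 in TB and 0.511, 0.839 and 0.672 in Ca. Log2 fold changes of BA for Dlx5 were 3.42 ± 0.16, 4.01 ± 0.18, 4.16 ± 0.16 and 6.06 ± 0.16 in that order, with adjusted p of at most 1.3e-17. Dlx6 was at 36.3, 43.2 and 45.1 CPM in BA and nowhere else above 2.14 CPM. For Dlx6 the differences were 4.74 ± 0.22 against E10.5 FLB, 4.91 ± 0.25 against E10.5 HLB, 5.56 ± 0.22 against TB and 5.86 ± 0.22 against Ca, with adjusted p of at most 1.2e-16. The sizes for Dlx6 rest on few reads, at most 7 estimated in each E10.5 limb bud library and at most 4 in each TB or Ca library. Dlx6os1, a noncoding gene that crosses Dlx6 on the other strand, had 50.9, 58.7 and 57.8 CPM in BA and at most 1.28 CPM in any other group. It shares no exon base with Dlx6.

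Dlx3 and Dlx4, the pair on chromosome 11, differed from each other in BA more than the other pairs did, at 27.9 and 1.54 CPM per kilobase of exon. Dlx3 had 64.7, 77.3 and 75.9 scaled CPM in BA, 9.85, 9.04 and 8.09 in E10.5 FLB, 8.79 and 10.6 in E10.5 HLB, 3.35, 4.75 and 3.30 in TB, and 0.255, 0.420 and 1.61 in Ca. For Dlx3 the log2 fold changes of BA were 2.95 ± 0.26, 2.84 ± 0.29, 4.10 ± 0.26 and 6.00 ± 0.26 in that order, with adjusted p of at most 3.2e-08. Dlx4 stayed low even in BA, at 4.57, 4.74 and 5.76 CPM. The Dlx4 libraries of E10.5 FLB (0.509, 0.329 and 0.344 CPM) and HLB (1.10 and 0.177 CPM) were all lower, as were those of Ca (0, 0 and 0.538 CPM) and TB (0.124, 0.232 and 0 CPM). BA differed by 2.63 ± 0.28 from E10.5 FLB, 2.40 ± 0.32 from E10.5 HLB, 3.11 ± 0.28 from Ca and 3.17 ± 0.28 from TB, with adjusted p of at most 3.6e-07. These sizes rest on 0 to 6 estimated reads of Dlx4 in the lower libraries and move with the pseudocount, for Ca between 1.69 and 4.78 and for E10.5 FLB between 1.55 and 3.38. Without replicate 1 or 3 of E10.5 HLB, the Dlx4 difference from that group was 3.02 or 1.78. Dlx4 reached 1 CPM in 10 of 26 libraries, those of BA and both early limb bud groups and 1 of E10.5 HLB, so it was tested only because of the groups in which it was high.

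Barx1, the homeobox gene of molar and joint mesenchyme, gave the largest differences between BA and the limb buds or the tail bud of all 10 genes. It had 174, 151 and 165 scaled CPM in BA, 3.83, 7.97 and 4.57 in Ca, and 0.620, 0.348 and 0.456 in TB. In E10.5 FLB it had 0.509, 0.164 and 1.03 CPM, and in E10.5 HLB 0.183 and 0.354. BA was higher by 7.34 ± 0.39 than E10.5 FLB, 7.74 ± 0.43 than E10.5 HLB, 7.40 ± 0.39 than TB and 4.84 ± 0.39 than Ca (log2, adjusted p of at most 1e-10). Ca was second to BA in Barx1 and overlapped only ES-FLB. Barx1 had at most 6 estimated reads in each E10.5 limb bud and TB library, and with a pseudocount of 0.1 or 2 in place of 0.5 the difference from E10.5 HLB was 8.83 or 6.19.

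Gsc, the goosecoid gene, was shared by the arch and the E10.5 limb buds. Its levels were 32.8, 38.9 and 49.3 scaled CPM in BA, 25.1, 25.5 and 31.0 in E10.5 FLB, and 15.2 and 17.9 in E10.5 HLB. In Ca it had 0.383, 0.699 and 4.30 CPM, with replicate 3 apart, and in TB 0.496, 0.232 and 0.342. The groups of BA and E10.5 FLB did not overlap in Gsc, but the log2 fold change of 0.55 ± 0.43 had adjusted p = 0.43. Against E10.5 HLB the value was 1.24 ± 0.48 with adjusted p = 0.046, and without any 1 of the 5 libraries compared the adjusted p was 0.053 to 0.2. Gsc of BA was higher than Ca by 4.55 ± 0.43 (adjusted p = 1.2e-08; 5.29 without replicate 3 of Ca) and than TB by 5.57 ± 0.43 (adjusted p = 2.9e-09).

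**Figure D2:**
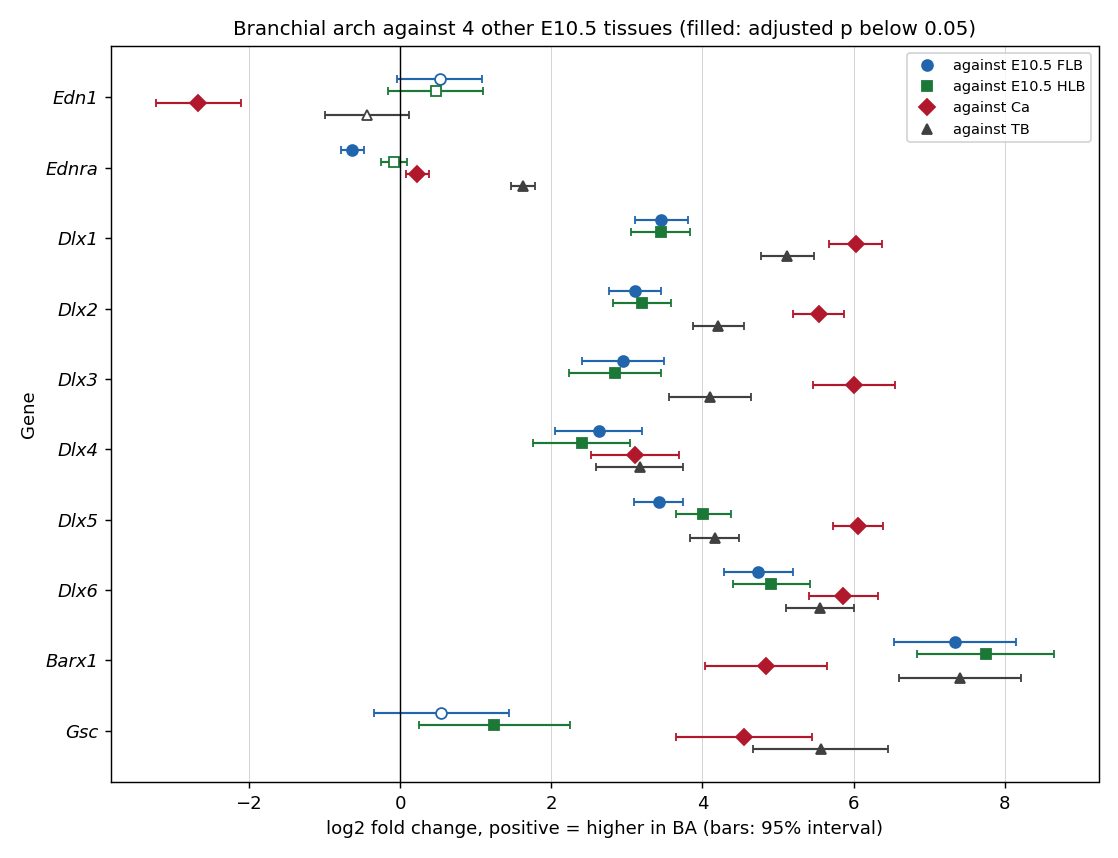
The x axis gives the log2 fold change of BA against each of 4 other E10.5 tissues, with bars for the 95% interval, and the y axis the 10 genes. Filled symbols passed an adjusted p of 0.05, and all symbols of the Dlx genes and Barx1 are filled and lie at 2.40 or more, whereas those of Edn1 and Ednra lie on both sides of 0.

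Counted together, 7 of 10 genes were higher and 1 (Ednra) lower in BA than in E10.5 FLB, where 11% and 9.7% of 14451 genes tested were higher and lower. Of the 10, 5 were higher by a log2 of 3 or more, against 0.311% of all genes. Against E10.5 HLB, 8 were higher and 0 lower (17.8% and 20.6% of all genes), and 5 were higher by a log2 of 3 or more (0.457%). The split of all calls in that comparison moved with the scaling, from 46.3% higher to 68.1% higher with CPM as deposited. Against Ca, 9 were higher and Edn1 was lower (38.9% and 35.9%), and 8 were higher by a log2 of 3 or more (0.948%). Against TB, 9 were higher and 0 lower (21.9% and 22.7%), with 8 at a log2 of 3 or more (0.408%). Dlx4 is among these 8 in both, but was at 1.69 and 1.73 with a pseudocount of 2. The median log2 fold change of the 10 genes was 3.03, 3.02, 5.19 and 4.18 in these 4 comparisons, and that of all genes lay between −0.013 and 0.042. The 4 comparisons share the BA libraries. The genes were listed for known arch roles, with earlier results of these data known, and the study names Dlx5, Dlx6 and Barx1 as specific to the arch. These counts therefore describe the list and give no independent support for it. Of 6 other genes listed for the oral and tooth-forming arch, 4 were higher and 2 lower in BA than in E10.5 FLB. Lhx8 and Lhx6 of that list had means of 58.8 and 51.7 CPM in BA.

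Within BA, levels were compared between genes per kilobase of exon. Exon lengths are from GENCODE vM21, whereas the study mapped with RefSeq and counted on UCSC gene models. Where the gene models differ, as may be so at the start of Dlx1, levels and ranks on this scale are approximate. Barx1 led with 117 ± 8.26 CPM per kilobase (SD, n = 3), followed by Dlx5 (34.2 ± 2.68), Gsc (31.8 ± 6.57), Dlx2 (30.3 ± 0.37) and Dlx3 (27.9 ± 2.64). Dlx6 (17.5 ± 1.95), Dlx1 (15.01 ± 0.93) and Ednra (13.3 ± 0.25) came next. Dlx4 (1.54 ± 0.20) and Edn1 (0.577 ± 0.27) were the lowest. On this scale the antisense Dlx1as, with 45.9 ± 4.85 CPM per kilobase, was above each Dlx gene in BA. In ES-FLB the order was different, with Ednra first at 50.2 ± 1.06 and Gsc second at 17.5 ± 1.15 CPM per kilobase.

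Neighbouring Dlx genes kept their ratio in some tissues and not in others, which is given as a description with no test. Dlx6 was 53.7% of Dlx5 in BA, 15.7% to 21.0% in the 4 limb bud groups and 10.2% in TB, counted on group means of CPM and not per length. In ES-HLB it was 44.2% and in ES-FLB 19.7%. The log2 ratio of Dlx6 to Dlx5 ran from −0.95 to −0.85 in BA, and all 11 limb bud libraries were lower, at most −1.50. Dlx2 was 107% of Dlx1 in BA and 242% in the early FLB, with log2 ratios of 0.04 to 0.18 and 0.93 to 1.40. Dlx4 was 3.12% to 7.59% of Dlx3 in all groups but Ca (23.5%) and ES-FLB (26.5%), in which Dlx4 had at most 4 and Dlx3 at most 12 estimated reads in a library.

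**Figure D3:**
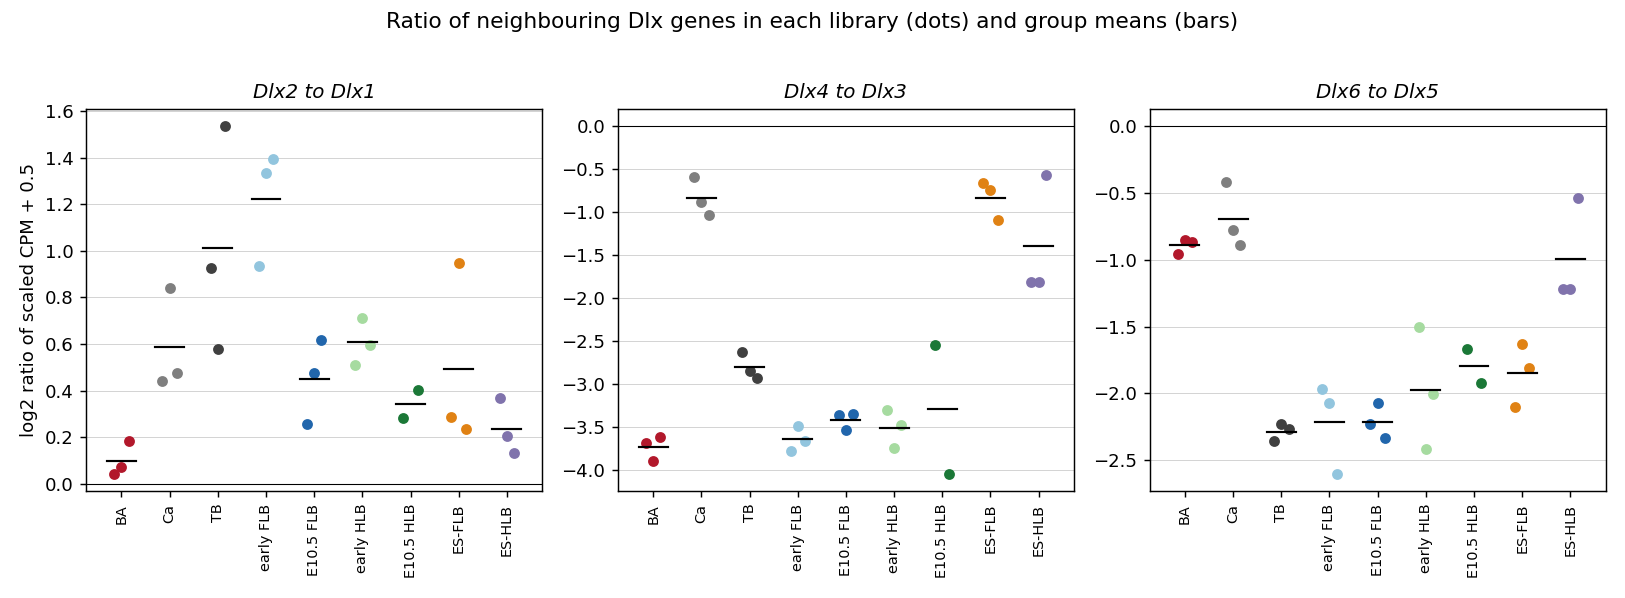
The y axis gives the log2 ratio of scaled CPM + 0.5 for 3 pairs of neighbouring Dlx genes in 9 groups, with dots for libraries and bars for group means. The ratio of Dlx6 to Dlx5 in BA lies above that of all limb bud libraries, and the ratios of Dlx4 to Dlx3 in Ca, ES-FLB and ES-HLB rest on few reads.

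The sorted ES-LB mesenchyme was then compared with the arch, which shares Hand2 activity with it. Hand2 had 126, 161 and 183 scaled CPM in BA, 159, 162 and 139 in ES-FLB and 240, 218 and 236 in ES-HLB, and 2.85, 0.811 and 2.39 in TB. Ca lay in the range of BA with 156, 144 and 141 CPM, so Hand2 was not particular to the arch. Of the 10 genes 9 were lower in ES-LB than in BA and 1 was higher (36.4% and 33.3% of all genes), and 7 were lower by a log2 of 3 or more (0.588%), among them Dlx4, which was at −1.71 with a pseudocount of 2. The median of the 10 was −3.24, and that of all genes −0.018. The study had already reported Dlx5, Dlx6 and Barx1 as hardly expressed in ES-LB. The log2 fold change of ES-LB against BA was −5.74 ± 0.23 for Dlx3 and −5.47 ± 0.34 for Barx1, with Dlx6 at −4.73 ± 0.19, Dlx5 at −4.20 ± 0.14, Dlx1 at −3.36 ± 0.15, Dlx4 at −3.12 ± 0.25 and Dlx2 at −3.09 ± 0.14. Smaller differences were found for Gsc (−1.90 ± 0.37, adjusted p = 0.00015) and Edn1 (−1.12 ± 0.24, adjusted p = 0.00012). For Gsc this averages unlike groups, with means of 22.2 CPM in ES-FLB and 4.71 in ES-HLB against 40.3 in BA. With pseudocounts of 2 and 0.1 the Edn1 difference ran from −0.48 to −1.91, and that of Dlx3 from −4.69 to −6.25. Ednra was higher in ES-LB by 1.51 ± 0.07 (adjusted p = 5.1e-19).

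Against the early limb buds, which the design sets beside the organoids, the genes split into those that were higher and those that were lower in culture. Ednra had 268, 278 and 279 scaled CPM in ES-FLB and 51.8, 57.7 and 56.2 in the early FLB, a log2 fold change of 2.31 ± 0.08 (adjusted p = 1.2e-22). In ES-HLB it had 151, 158 and 163 CPM and in the early HLB 52.9, 48.2 and 50.9, a change of 1.62 ± 0.08 (adjusted p = 1.3e-18). Both organoid groups were above every embryonic library in Ednra. Gsc had 21.1, 23.9 and 21.7 CPM in ES-FLB against 2.60, 3.02 and 2.15 in the early FLB (2.89 ± 0.43, adjusted p = 5.3e-06). In ES-HLB Gsc had 3.62, 5.71 and 4.80 CPM against 3.68, 1.30 and 1.81 in the early HLB, which overlap, and the change of 0.99 ± 0.43 with adjusted p = 0.043 was lost without replicate 2 or 3 of the early HLB or of ES-HLB, with adjusted p of 0.18, 0.11, 0.12 and 0.087. The Gsc levels of ES-FLB lay just below those of the E10.5 FLB, and those of ES-HLB well below those of the E10.5 HLB.

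Barx1, at most 0.543 CPM in the early HLB, was a little higher in culture. Its values were 3.81, 4.85 and 3.22 scaled CPM in ES-FLB and 2.99, 2.51 and 2.34 in ES-HLB, each in a narrow range. In the early FLB replicates 1 and 2 had 0.478 and 0.364 CPM and replicate 3 had 3.45, which overlaps ES-FLB. The log2 fold change for ES-FLB was 1.56 ± 0.39 (adjusted p = 0.00094), or 2.26 without that replicate, and in a fit of the compared groups alone the adjusted p was 0.076. For ES-HLB against the early HLB it was 1.60 ± 0.39 (adjusted p = 0.00076). The level in ES-LB was still far from BA.

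Dlx3, the surface ectoderm member of the family, fell the most of the 10 genes in culture. The early FLB had 28.1, 32.4 and 30.2 scaled CPM and ES-FLB 0.476, 0.766 and 1.07, a log2 fold change of −4.62 ± 0.26 (adjusted p = 2.1e-14). In the early HLB Dlx3 was at 18.2, 25.1 and 22.6 CPM and in ES-HLB at 1.25, 1.25 and 0.586, a change of −3.90 ± 0.26 (adjusted p = 7.9e-13). Each ES-LB library had at most 10 estimated reads of Dlx3, so the sizes move with the pseudocount. With pseudocounts of 2 and 0.1 they were −3.54 and −5.18 for ES-FLB, and −2.98 and −4.35 for ES-HLB. Dlx3 was 116% of Dlx2 in the early FLB and 121% in the early HLB, but 9.10% and 9.19% in ES-FLB and ES-HLB. Of 10 markers of surface ectoderm, 7 were lower and 2 higher in ES-FLB, where 41.2% of all genes were lower and 35.4% higher. In ES-HLB 5 were lower and 2 higher, against 40.3% and 34.9%. The list had summed levels of 448 to 559 CPM in the early FLB, 394 to 476 in the early HLB, 124 to 174 in ES-FLB and 227 to 241 in ES-HLB. No marker of the list was at 0 in all libraries of a group, and Trp63, which encodes the epidermal factor p63, had means of 71.9 and 60.9 CPM in early FLB and HLB and 3.56 and 4.05 in ES-FLB and ES-HLB. The keratin gene Krt14 rose, from 3.18 to 7.27 CPM in ES-FLB and from 3.90 to 17.9 in ES-HLB, and Krt5 had 26.6 and 54.1 CPM in early FLB and HLB and 34.9 and 62.9 in ES-FLB and ES-HLB, with adjusted p of 0.18 and 0.46. The list of the apical ectodermal ridge gave 5 lower and 1 higher of 7 in both comparisons. The part of ectoderm in the change of Dlx3 was not tested.

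The other Dlx genes changed less. Dlx2 had 20.7, 30.4 and 27.2 scaled CPM in the early FLB and 7.39, 9.83 and 8.24 in ES-FLB (log2 −1.56 ± 0.17), and 17.4, 19.4 and 17.9 in the early HLB and 9.98, 12.1 and 11.5 in ES-HLB (−0.68 ± 0.17, adjusted p = 0.00049). Dlx5 fell from 9.14, 9.69 and 12.01 CPM to 3.69, 4.597 and 4.18 in ES-FLB (−1.21 ± 0.16), and from 6.99, 9.72 and 8.09 CPM to 3.87, 2.93 and 3.28 in ES-HLB (−1.18 ± 0.16). Dlx4 was also lower, by −1.81 ± 0.28 and −1.79 ± 0.28, on at most 2 estimated reads in each ES-LB library, so that the sizes ran from −0.85 to −2.79 and from −0.74 to −3.39 with pseudocounts of 2 and 0.1. Dlx1 had 10.6, 11.8 and 10.02 CPM in the early FLB and 5.96, 4.85 and 6.93 in ES-FLB (−0.83 ± 0.17, adjusted p = 7.2e-05). In ES-HLB, with 7.61, 10.45 and 10.43 CPM against 12.1, 11.7 and 11.7, Dlx1 gave −0.31 ± 0.17 with adjusted p = 0.1. Dlx6 likewise was lower in ES-FLB (−0.84 ± 0.22, adjusted p = 0.0011), whereas ES-HLB gave −0.20 ± 0.22 with adjusted p = 0.43. Edn1 had 0.119, 0.255 and 0 CPM in ES-FLB, under 3 reads in each library, and 0.319, 0.677 and 0.916 in the early FLB, and its change of −0.85 ± 0.28 had adjusted p = 0.0063, or −0.31 with adjusted p = 0.052 with a pseudocount of 2. In ES-HLB (0.374, 0.557 and 0.469 CPM) Edn1 gave −0.13 ± 0.28 against the early HLB, with adjusted p = 0.67.

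In counts, 3 of the 10 genes were higher and 7 lower in ES-FLB than in the early FLB, where 35.4% and 41.2% of all genes were higher and lower. In ES-HLB, 3 were higher and 4 lower than in the early HLB (34.9% and 40.3%). These background shares are so large that the counts alone set the 10 genes little apart, and with CPM as deposited the median of all genes was shifted to 0.22 and 0.18, from −0.049 and −0.043. The share of higher genes among all calls moved with it from 46.2% to 62.7% for ES-FLB and from 46.4% to 61.3% for ES-HLB. Under that scaling no call of the 10 genes was lost in these 2 comparisons.

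**Figure D4:**
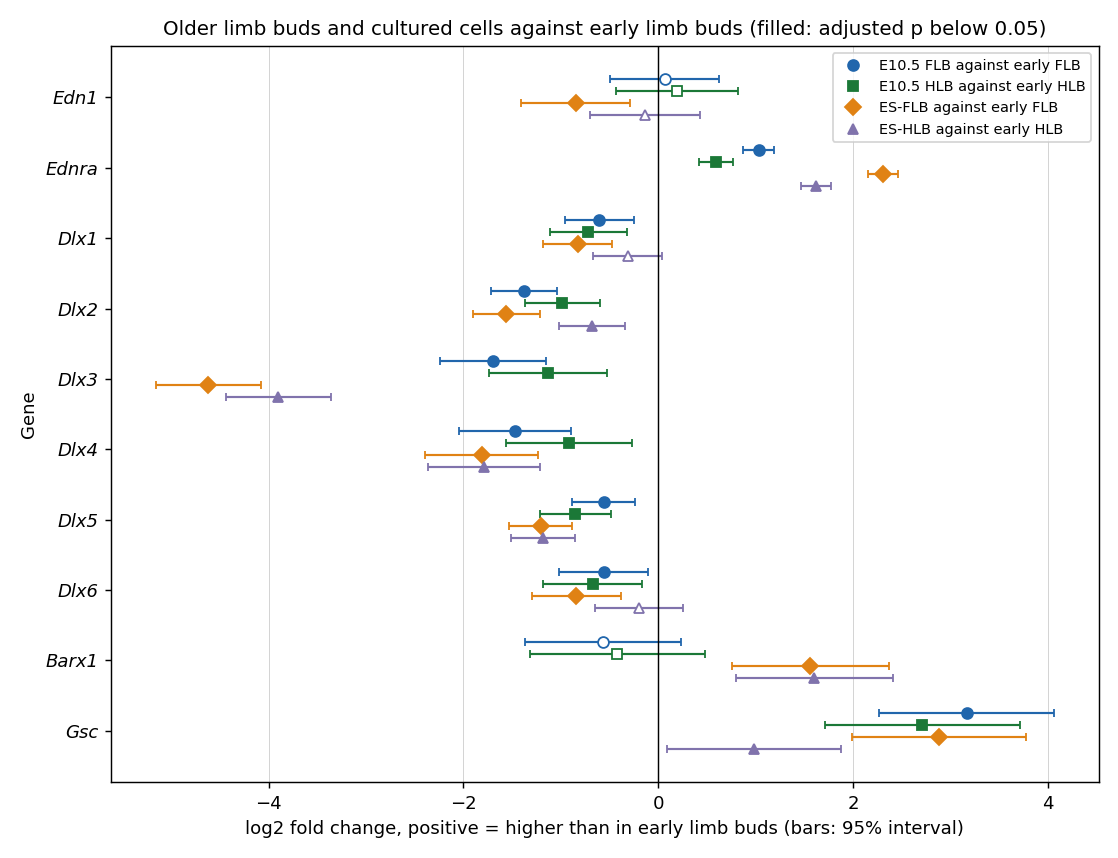
The x axis gives the log2 fold change against early limb buds of the same type, with bars for the 95% interval, for E10.5 limb buds and for organoid mesenchyme, and the y axis the 10 genes. Filled symbols passed an adjusted p of 0.05. Gsc and Ednra lie right of 0 in all 4 comparisons, and Dlx3 of the organoids lies far to the left, at −4.62 and −3.90.

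The same genes were followed from the early to the E10.5 limb buds. All 6 Dlx genes were lower and Ednra and Gsc higher at E10.5 in both limb types. In the FLB, Dlx3 fell from 28.1, 32.4 and 30.2 scaled CPM to 9.85, 9.04 and 8.09 (log2 −1.70 ± 0.26, adjusted p = 4.3e-06) and Dlx2 by 1.38 ± 0.17 on the log2 scale (adjusted p = 1.9e-08). Dlx4 changed by −1.47 ± 0.28, Dlx1 by −0.61 ± 0.17, Dlx5 by −0.56 ± 0.16 and Dlx6 by −0.56 ± 0.22, of which Dlx6 had the largest adjusted p, 0.03. The Dlx6 call was lost without replicate 1 or 2 of either group, with adjusted p of 0.068 to 0.087. Gsc rose from 2.60, 3.02 and 2.15 CPM to 25.1, 25.5 and 31.0 (3.17 ± 0.43, adjusted p = 3.1e-06) and Ednra from 51.8, 57.7 and 56.2 CPM to 120, 110 and 109 (1.03 ± 0.08, adjusted p = 3.7e-13). Barx1 gave −0.57 ± 0.39 and Edn1 0.066 ± 0.28, with adjusted p of 0.22 and 0.86.

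In the HLB the pattern was alike in direction. Dlx3 went from 18.2, 25.1 and 22.6 scaled CPM to 8.79 and 10.6 (log2 −1.13 ± 0.29, adjusted p = 0.0044) and Dlx2 from 17.4, 19.4 and 17.9 CPM to 7.69 and 10.45 (−0.98 ± 0.19, adjusted p = 0.00013). For Dlx5 the change was −0.85 ± 0.18, for Dlx1 −0.72 ± 0.19, for Dlx4 −0.92 ± 0.32 and for Dlx6 −0.67 ± 0.25, with adjusted p of at most 0.039. Gsc rose from 3.68, 1.30 and 1.81 CPM to 15.2 and 17.9 (2.71 ± 0.48, adjusted p = 0.00024) and Ednra from 52.9, 48.2 and 50.9 CPM to 75.8 and 78.0 (0.60 ± 0.08, adjusted p = 2.2e-06). Barx1 gave −0.42 ± 0.43 and Edn1 0.19 ± 0.31, with adjusted p of 0.51 and 0.69. Without replicate 3 of E10.5 HLB the changes of Dlx4 and Dlx6 were −0.30 and −0.47, with adjusted p of 0.62 and 0.31, and the Dlx4 and Dlx6 calls were each lost without some early HLB libraries too (replicates 2 and 3 for Dlx4, 1 and 3 for Dlx6). Without replicate 1 of E10.5 HLB, Dlx1 and Dlx3 had adjusted p of 0.093 and 0.061.

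Thus 2 genes were higher and 6 lower in each limb type, on a background of 24.3% and 36% of all genes in the FLB and 10.52% and 20.9% in the HLB. The early libraries were sequenced to 19642121 to 22142509 estimated reads and those of E10.5 limb buds to 5543760 to 5908873, so depth moves with stage and its part in these changes was not tested. Scaling mattered here. With CPM as deposited the median of all genes in the FLB moved from −0.075 to 0.13, the share of higher genes among all calls from 40.3% to 66.6% in the FLB and from 33.5% to 58.4% in the HLB, and Dlx1, Dlx5 and Dlx6 of the FLB and Dlx6 of the HLB no longer passed. Their changes were then −0.38, −0.33, −0.38 and −0.59. Dlx2, Dlx3 and Dlx4 kept their calls in the FLB under that scaling. Ridge markers gave 5 lower and 2 higher of 7 in the FLB, where their summed level went from 186 to 219 CPM to 74.0 to 84.8 CPM, and surface ectoderm markers gave 4 lower and 2 higher of 10. The part of these cells in the Dlx changes was not tested.

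Between the limb types few of the genes differed. In culture, the log2 fold change of ES-HLB against ES-FLB was −2.14 ± 0.43 for Gsc (adjusted p = 0.0012), −0.81 ± 0.08 for Ednra (adjusted p = 1.3e-09) and 0.64 ± 0.17 for Dlx1 (adjusted p = 0.0074). Without replicate 2 of ES-FLB the Dlx1 difference was 0.52 with adjusted p = 0.062. These are 1 gene higher and 2 lower, where 10.8% and 8.91% of all genes were higher and lower. In the early limb buds 0 genes were higher and Dlx2 was lower in HLB (−0.49 ± 0.17, adjusted p = 0.036), against 8.32% and 10.6% of all genes, and Dlx2 passed in 7 of 15 alternatives. By the study's text, stage differs with limb type in this comparison, and their parts cannot be told apart. At E10.5, 0 were higher and 2 lower in HLB, against 12.7% and 9.8%, namely Ednra (−0.55 ± 0.08, adjusted p = 2e-05) and Dlx5 (−0.59 ± 0.18, adjusted p = 0.016), and the call of Dlx5 was lost without replicate 3 of E10.5 FLB or either library of E10.5 HLB. The share of higher genes among all calls moved with CPM as deposited from 44.0% to 60.8% in the early limb buds and from 56.5% to 28.5% at E10.5.

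The differences between these differences were tested too. The change from ES-FLB to ES-HLB was not that from early FLB to early HLB for 3 of the 10 genes, against 20% of all genes. These were Ednra (−0.68 ± 0.11, adjusted p = 1.6e-05), Dlx2 (0.87 ± 0.24, adjusted p = 0.0075) and Gsc (−1.90 ± 0.60, adjusted p = 0.032). The call of Gsc was lost in 8 of 12 fits that left out 1 library (all but those without replicate 2 of early FLB, 2 or 3 of early HLB or 2 of ES-HLB), with adjusted p of 0.051 to 0.092. The stage change differed between HLB and FLB for Ednra only (−0.43 ± 0.11, adjusted p = 0.006), against 22.2% of all genes, and by the stages in the study's text the change spans a longer time in the FLB. With CPM as deposited, the share of positive differences among all calls moved from 57.0% to 44.8% in the first test and from 57.7% to 26.3% in the second.

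Other genes of the pathway were read from lists. Of 11 endothelin genes 10 were tested, and in BA 3 were higher and 0 lower than in E10.5 FLB (median log2 0.16), against 11% and 9.7% of all genes. Against Ca 4 were higher and 5 lower (median −0.63), near the 38.9% and 35.9% of all genes. Ece1, which encodes the enzyme that cuts big endothelin to its active form, had a mean of 373 scaled CPM in Ca and 90.8 in BA, a log2 fold change of −2.03 ± 0.07 (adjusted p = 6.8e-23). Ednrb, the gene of the endothelin B receptor, was also lower in BA than in Ca (−3.64 ± 0.21, adjusted p = 2e-15), with means of 8.36 and 105 CPM. Edn3, a second ligand gene, had means of 32.05 CPM in BA and 1.75 in Ca and was higher in BA than in Ca by 3.995 ± 0.22 (adjusted p = 2.8e-14). The erythroid and endothelial markers were high in Ca as well, at 22548 to 32778 CPM and 926 to 989 CPM summed, against 2726 to 3334 and 267 to 316 in BA. Their part in the levels of Edn1 and Ednrb was not tested.

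Genes of the mandibular arch, many of which lie downstream of endothelin and Dlx5 and Dlx6, gave 8 higher and 2 lower of 14 in BA against E10.5 FLB (median log2 1.34) and 6 higher and 3 lower against E10.5 HLB (median 0.38). Of all genes 11% and 9.7% were higher and lower against FLB, and 17.8% and 20.6% against HLB. The mandibular list holds Dlx6os1, which crosses Dlx6 and was among the genes higher in both comparisons, so it is not apart from the Dlx genes. Hand1 was higher in BA than in E10.5 FLB by 4.59 ± 0.35, while Bmp4 was lower (−1.37 ± 0.08). Hand2, a target of endothelin in the arch that is also active in limb buds and heart, gave 0.059 ± 0.23 with adjusted p = 0.91. Genes of the maxillary arch gave 5 higher and 2 lower of 8 (median 0.90), among them Pou3f3 with 5.31 ± 0.28. Genes of the oral and tooth-forming region gave 4 higher and 2 lower of 6 (median 2.04), with Lhx8 at 6.74 ± 0.23 and Lhx6 at 4.68 ± 0.29. The median of all genes was 0.00035 in this comparison. All these log2 fold changes but that of Hand2 had adjusted p of at most 8.8e-09.

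In the organoids, no difference between the lists was tested. Against the early FLB, ES-FLB gave 7 higher and 1 lower of the 8 maxillary genes (median log2 1.16) and 4 higher and 1 lower of the 6 oral genes (median 1.94), with 5 higher and 6 lower of the 14 mandibular genes (median 0.017). ES-HLB gave 6 higher and 2 lower, 4 higher and 2 lower, and 3 higher and 6 lower. Of all genes 35.4% and 41.2% were higher and lower in ES-FLB, and 34.9% and 40.3% in ES-HLB, and the mandibular counts lie near these shares. The genes that rose in ES-FLB include Lhx6 (2.35 ± 0.29), Lhx8 (1.88 ± 0.23), Pou3f3 (2.80 ± 0.28) and Foxf1 (3.38 ± 0.35), each with adjusted p of at most 1.1e-07, and Lhx8 was lower in ES-LB than in BA (−4.31 ± 0.20). Neural markers had summed levels of 26.4 to 32.3 CPM in ES-FLB and 26.6 to 36.2 in ES-HLB, and 1.29 to 3.73 in the early limb buds, and of 7 tested 3 and 4 were higher. Their part in the arch lists was not tested.

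Likeness across groups was measured as Pearson's r of group means of log2(scaled CPM + 0.5) over 9 groups, among 10138 genes with at least 16 CPM in 1 group, and is given without a test, since groups share strain, stage or culture. Dlx6 was most like Dlx6os1 (r = 0.957) and Dlx1as (0.947), and Dlx5 most like A730090H04Rik (0.932), which RefSeq lists as Dlx4os, the antisense neighbour of Dlx4. Dlx4os had a mean of 18.6 CPM in BA and shares 79 exon bases with Dlx4, 2.42% of the exons of Dlx4. Barx1 was most like Dnajc1 (0.955) and Lhx8 (0.941), Gsc like Eya4 (0.973), Dlx3 like Itgb5 (0.959), Dlx1 like Gap43 (0.934), Dlx2 like Crym (0.939), Edn1 like Rasal2 (0.982) and Ednra like Arid5b (0.979). Among the 10 genes themselves, r was 0.978 for Dlx1 and Dlx2, 0.916 for Dlx3 and Dlx4 and 0.932 for Dlx5 and Dlx6. Some Dlx genes that are not neighbours were as alike, with 0.951 for Dlx2 and Dlx5 and 0.933 for Dlx1 and Dlx5. The lowest r between Dlx genes was 0.718, for Dlx3 and Dlx6. All 6 Dlx genes were highest in BA, which weighs in each of these values. For Gsc and Ednra r was 0.665, and for Edn1 and Ednra −0.478.

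The order of the 9 groups by mean level differed among the genes. BA was first for all 6 Dlx genes, Barx1 and Gsc, and its libraries did not overlap those of the group ranked second. The share of all genes with such an order was not counted, and these genes were listed for arch roles. The order therefore only describes the list. For Dlx1 the groups ranked second to seventh (early HLB, early FLB, ES-HLB, E10.5 HLB, E10.5 FLB and ES-FLB) overlapped from one to the next. Early FLB and early HLB came next after BA for Dlx2, Dlx3 and Dlx4 without overlap, and for Dlx5 and Dlx6 with overlap. For Gsc no group overlapped the next from BA through E10.5 FLB, ES-FLB, E10.5 HLB and ES-HLB to the early FLB. The same held for Ednra from ES-FLB and ES-HLB to E10.5 FLB, E10.5 HLB and BA. Ca was last for Dlx1, Dlx2, Dlx3, Dlx5 and Dlx6, TB for Gsc and Ednra, ES-HLB for Dlx4, E10.5 HLB for Barx1 and ES-FLB for Edn1, and the last 2 groups overlapped for Dlx3, Dlx4, Barx1 and Gsc.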

How the data were processed

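The authors made stranded mRNA libraries, aligned reads from 1 end to mm10 with HISAT 2.0.4 and counted with Cuffdiff. The values they deposited are CPM, and each library's column adds up to 1000000. The strand setting of the counting is not given in the sources used here. Here CPM of 26 libraries were scaled by an unweighted trimmed mean of log ratios (30% of ratios, 5% of intensities). Replicate 2 of E10.5 HLB was left out because nearly all genes on chromosomes 5 to 9 and X are listed at 0 there. The filter was 1 CPM in 3 libraries, which left 14451 genes, all 10 members among them. Log2(CPM + 0.5) was fitted by limma 3.58.1 (R 4.3.3; trend, robust; 1 model) with Benjamini-Hochberg adjustment and a threshold of 0.05, and such fold changes understate the changes of low genes. The limma fit was tested on simulated counts for BA against E10.5 FLB, without the trimmed mean scaling.

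Reads per library were estimated from the spacing of low values, and 3 reads were taken as the floor, which covers counting error only. Members and lists were chosen with earlier results of these data known. Named were all members, genes of the lists and, per member but Dlx4, the genes of highest r. Exons are from GENCODE vM21, promoters and synonyms from RefSeq GRCm38.p6. Alternatives were CPM as deposited, pseudocounts of 0.1 and 2, no filter and 5 CPM, no trend, only the compared groups, a replicate block, the left-out library kept, and each replicate left out.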

Additional observations from a re-analysis of the deposited data

Results flagged for a closer look

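The limb type difference in culture differed from that in the early limb buds, by a test of the difference itself, for Dlx2 (log2 0.87 ± 0.24, adjusted p = 0.0075), Ednra (−0.68 ± 0.11, adjusted p = 1.6e-05) and Gsc (−1.90 ± 0.60, adjusted p = 0.032), by limma. That of Gsc was lost in 8 of 12 fits that left out 1 library. The stage change of Ednra differed between HLB and FLB (−0.43 ± 0.11, adjusted p = 0.006). By the study's text the early FLB are of an earlier stage than the early HLB, so stage and limb type cannot be told apart in these differences.

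The library left out, replicate 2 of E10.5 HLB, holds values of 6 of the genes at or above the level of 3 reads, which is 0.819 CPM there. As deposited they were 11.7 CPM for Dlx1, 15.6 for Dlx2, 14.5 for Dlx3, 0.819 for Dlx4, 18.8 for Gsc and 2.46 for Edn1. In replicates 1 and 3 the deposited CPM were 6.02 and 7.68 for Dlx1, 7.44 and 10.3 for Dlx2, 8.50 and 10.47 for Dlx3, 1.06 and 0.174 for Dlx4, 14.7 and 17.6 for Gsc and 0.531 and 0.872 for Edn1. CPM of that library are shares of a total over fewer genes, so they are not on the scale of the others.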

How the results depend on the processing

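The planned count tests were not run, since the values are CPM with some fractional reads: by library, 95.7% to 99.5% of low values were whole reads within 0.1 read. Of 140 gene and comparison values, 88 were called. No called value changed its sign under any alternative, and with the replicate number as a block 88 of 88 calls and 52 of 52 values without a call stayed as they were, as they did with replicate 2 of E10.5 HLB kept. That library's truncated chromosomes were set as missing in the latter fit, so Dlx5, Dlx6 and Ednra gained no value from it. Comparisons without E10.5 HLB could change there only through the shared scaling and spread, so the fit is a weak check. Correlations of deviations between libraries of 1 number were low: the 84 ran from −0.089 to 0.13, with 3 above 0.1. In 46 of the 84, the library of the same number correlated better than the other libraries of that group. Whether libraries of 1 number share a source was not tested. CPM as deposited lost 5 calls, a pseudocount of 0.1 lost 8, a pseudocount of 2 lost 1, no filter 1, no trend 1 and a fit of only the compared groups 3 of 86. Values without a call changed their sign in 5, 1 and 1 cases with CPM as deposited and pseudocounts of 0.1 and 2, and in 39 of 387 fits that left out 1 replicate. Among values printed above these were Ednra in BA against E10.5 HLB (0.024 with CPM as deposited), and, with the lowest and highest value over the fits without 1 replicate, Barx1 in E10.5 FLB against early FLB (−0.96 to 0.13), Edn1 there (−0.28 to 0.30) and Edn1 in E10.5 HLB against early HLB (−0.011 to 0.39). In those fits without 1 replicate 38 of 563 calls were lost.

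The number of genes past the test moved by over 1.5 times in these cases, and by less elsewhere. In E10.5 against early FLB it was 8, and 5 with CPM as deposited. In E10.5 against early HLB it was 8, and 5 with a pseudocount of 0.1. In early HLB against early FLB it was 1, but 0 with CPM as deposited, a pseudocount of 0.1, no filter or no trend, 2 with a pseudocount of 2 or only the compared groups, and 0 to 1 without 1 replicate. In E10.5 HLB against FLB it was 2, and 1 to 2 without 1 replicate. In the difference of stage changes it was 1, and 2 with only the compared groups. The cause was not tested.

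Ratios of neighbouring genes depend on the pseudocount where reads are few. With 0.1 the log2 ratio of Dlx4 to Dlx3 was −1.88 in Ca, −4.30 in TB, −3.88 in early FLB, −4.22 in E10.5 FLB, −3.81 in early HLB, −1.49 in ES-FLB and −2.85 in ES-HLB. With 2 it was −3.41 in BA, −0.32 in Ca, −1.45 in TB, −3.02 in early FLB, −2.20 in E10.5 FLB, −2.78 in early HLB, −2.17 in E10.5 HLB, −0.33 in ES-FLB and −0.54 in ES-HLB. For Dlx6 to Dlx5 it was, with 0.1, −1.27 in Ca, −3.01 in TB, −2.56 in E10.5 FLB, −2.17 in E10.5 HLB and −2.27 in ES-FLB, and with 2, −0.27 in Ca, −1.29 in TB, −1.68 in early FLB, −1.52 in E10.5 FLB, −1.46 in early HLB, −1.13 in E10.5 HLB and −1.13 in ES-FLB. For Dlx2 to Dlx1 in Ca it was 0.81 with 0.1 and 0.29 with 2.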
